A study of Mus musculus with 10 samples.

Results

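The genes described here are Snai2, Zeb2, Cdh2, Vim and Ctnna1. These genes were chosen by name, with earlier results of these data known, as regulators and structural products of the epithelial-mesenchymal transition (EMT). They are 5 of the 10735 protein-coding genes in the deposited table, and each was found there once. RNA was sequenced from 10 cultures of the mouse melanoma cell line B16-F1, 5 of the wild type and 5 of B16-F1ΔFOXC2, a derivative described as lacking the forkhead transcription factor FOXC2. Both groups have the C57Bl/6 background, and all cultures were grown for 24 h in RPMI-1640 with 10% fetal bovine serum to a confluence of about 90%, at passages 5 to 10. How FOXC2 was removed, and whether the ΔFOXC2 cells are 1 clone, is not given in the sources used here. Nothing says that the 5 samples of a group were separate lines, so the p-values measure the spread between cultures, which may be technical. The Foxc2 transcript was not analysed here, so the genotypes stand as labelled.

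SNAI2 (also called SLUG) and ZEB2 are zinc finger repressors that bind the E-box sequence CACCTG and its reverse complement CAGGTG. In epithelial cells they silence junction genes, and the cell takes on a mesenchymal shape. Cadherin-2 (N-cadherin, Cdh2) is the adhesion receptor that such cells carry, alpha-catenin (Ctnna1) ties the cadherin complex to actin, and vimentin (Vim) forms the intermediate filaments of mesenchymal cells. Melanocytes come from the neural crest rather than from an epithelium, and they express SNAI2 and ZEB2 as part of their normal lineage programme.

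Values are FPKM, the fragments mapped to a gene relative to transcript length and to the library total, so that levels of different genes can be compared. The FPKM sum of a library lay between 240441 and 251273, and the read depth behind it is unknown. All differences are wild type minus ΔFOXC2 on the scale log2(FPKM + 0.1), which understates the change of low genes. They were tested with limma over 10570 genes. A gene is said to be called where the Benjamini-Hochberg adjusted p was at most 0.05 and the fold at least 1.5. By that rule 8.62% of the tested genes were called, 3.65% with the wild type higher and 4.97% with it lower, and the groups did not overlap for 30.0% of the tested genes. The called shares are the background of each count of called genes given for a list. The lists were chosen with earlier results of these data known, so such counts do not test a list. The median difference over all genes tested was 0.00662.

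The E-box was looked for in RefSeq promoter windows (build GRCm38.p6), which run from 250 bases before to 50 after a start site. CACCTG or CAGGTG, each read on the printed strand so that both strands are covered, was present in 6640 of 32851 windows (20.2%). No window of Zeb2 (4 windows) or Vim (1 window) held it, which says only that these letters are not in those 300 bases. Of the other members no window was used here. The Vim window did hold TATAAA, the core of a TATA box, on the gene's own strand, as did 8.32% of all windows. The stretches printed are that one, because it lies just before the RefSeq start of the most abundant member, and the upstream E-boxes of called genes in the lists. The E-box was taken because CACCTG is the motif named for SNAI2 and ZEB2. Called genes of every list described below were searched where they had a window, and only Dst and Tjp3 held an E-box before the start. Capitals mark the motif. The Vim stretch is at chr2:13574267-13574296 on the plus strand. The Vim locus given below begins at 13573927, so the stretch lies inside that locus and is upstream of the RefSeq start only. The Dst stretch is at chr1:34011446-34011475 on the plus strand. The Tjp3 stretches are at chr10:81291672-81291701 and chr10:81291268-81291297 on the minus strand, each upstream of a different start.
Vim: tcctaacagtgtTATAAAagcagcgccctt
Dst: tgtttcccccggCACCTGttgtgggtccca
Tjp3, first start: gtcacaaggggtCAGGTGtacagacaggga
Tjp3, second start: ccacaaaccctccCACCTGcaggccggcct
The motif began 32 bases before the start in Vim, 137 in Dst, and 108 and 17 in Tjp3.

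Snai2 was the member that was called, and it was lower in the wild type. Snai2 (ENSMUSG00000022676.6, chromosome 16, 14705852 to 14709395, plus strand, GRCm38) had 8.19, 7.18, 8.23, 6.62 and 9.33 FPKM in wild-type replicates 1 to 5. In ΔFOXC2 replicates 1 to 5 it had 11.3, 14.3, 14.5, 11.8 and 14.1 FPKM. Every wild-type library was below every ΔFOXC2 library, and the nearest libraries were 1.93 FPKM apart. The means were 7.91 ± 1.05 and 13.2 ± 1.53 FPKM (SD, n = 5 each), a log2 difference of -0.73 (SE 0.102, 95% interval -0.96 to -0.51, limma adjusted p = 0.000177). The wild type thus held 0.516 to 0.703 times the ΔFOXC2 level by that interval. The interval reaches past the 1.5-fold line, so the size of the call is less certain than its direction. The summed level of 7 melanocyte markers was also lower in the wild type (3180 to 3650 against 3820 to 4210 FPKM). The sum of 2 leukocyte markers was lower too (0.757 to 1.40 against 2.53 to 4.59 FPKM). Of 8 leukocyte markers listed only these were in the table, which keeps genes whose higher group mean is at least 0.5 FPKM. Lyz2 was kept through its ΔFOXC2 mean (0.386 against 2.33 FPKM), so the direction of its difference was partly set by that rule. The part of either marker set in the Snai2 difference was not tested. In bulk RNA, fewer cells of a type and less RNA per cell cannot be told apart.

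The 23 tested neighbours of Snai2 within 2 Mb on chromosome 16 had a median of -0.01, with 1 called in each direction.

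Zeb2, the other repressor, differed by less than the spread between libraries. Zeb2 (ENSMUSG00000026872.17, chromosome 2, 44983632 to 45117395, minus strand) had 16.7, 20.7, 19.4, 17.9 and 17.8 FPKM in the wild type. In ΔFOXC2 cells it had 17.9, 19.4, 18.0, 16 and 16.7 FPKM. The groups overlapped, with wild-type replicate 1 among the lowest of the 10 libraries. The means were 18.5 ± 1.58 and 17.6 ± 1.31 FPKM, with a log2 difference of 0.07 (95% interval -0.08 to 0.22, limma adjusted p = 0.437). The interval runs from 0.947 to 1.16 times the ΔFOXC2 level.

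The proportion of the repressors was tested in each library. The ratio of Snai2 to Zeb2 FPKM was 0.431 ± 0.0759 in the wild type, from 0.346 to 0.523, and 0.750 ± 0.0814 in ΔFOXC2 cells, from 0.628 to 0.842. Zeb2 was the more abundant in all 10 libraries, and the ratios of the groups did not overlap. On the log2 scale the ratio differed by -0.80 (two-sided exact permutation test, p = 0.00794, the smallest that 5 against 5 libraries can give). The value rests on the Snai2 level used above and is not separate evidence for it.

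**Figure D1:**
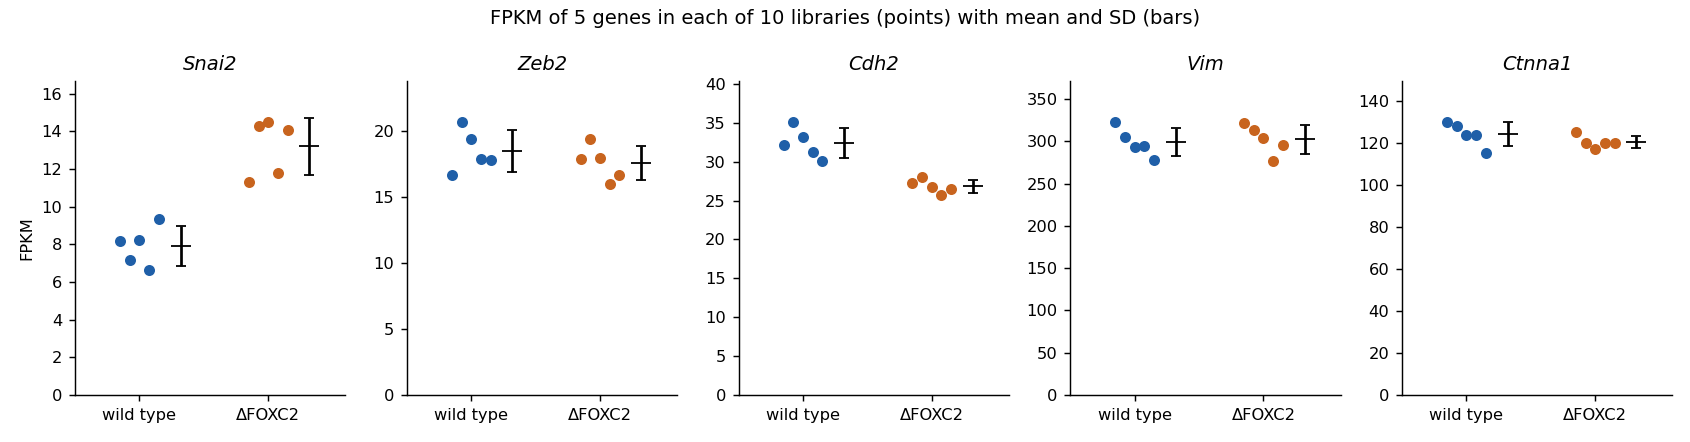
FPKM of Snai2, Zeb2, Cdh2, Vim and Ctnna1 (vertical axes, linear from 0) in the 5 wild-type (blue) and 5 ΔFOXC2 (orange) libraries; points are libraries and bars the mean with SD. The groups are apart for Snai2 (6.62 to 9.33 against 11.3 to 14.5) and Cdh2 (30.1 to 35.1 against 25.7 to 28.0) and overlap for Zeb2, Vim and Ctnna1.

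Cdh2 was higher in every wild-type library, by less than 1.5-fold. Cdh2 (ENSMUSG00000024304.14, chromosome 18, 16588877 to 16809246, minus strand) had 32.2, 35.1, 33.2, 31.2 and 30.1 FPKM in the wild type. In ΔFOXC2 cells it had 27.2, 28.0, 26.8, 25.7 and 26.5 FPKM, so that the groups did not overlap. The means were 32.4 ± 1.92 and 26.8 ± 0.87 FPKM, a log2 difference of 0.27 (SE 0.0453, 95% interval 0.17 to 0.37, limma adjusted p = 0.000693). The fold was 1.20, and 1.29 at the upper end of the interval, so the gene passed the p threshold and not the fold threshold. At any fold, 41.6% of the tested genes had an adjusted p of at most 0.05. Its 4 tested neighbours within 2 Mb had a median of 0.04, and all 270 tested genes of chromosome 18 a median of 0.06. In another setting chromosome medians were centred. Within each library, the median log2 level of each chromosome's genes was set to that of all genes tested. That does not subtract the median difference of 0.06, and the shift it gives can be of another size. With this centring the log2 difference of Cdh2 was 0.16 (limma adjusted p = 0.0326), below the interval above.

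Vim and Ctnna1 were abundant in both groups and differed little. Vim (ENSMUSG00000026728.9, chromosome 2, 13573927 to 13582826, plus strand) had 323, 305, 293, 295 and 278 FPKM in wild-type cells and 322, 313, 304, 277 and 296 FPKM without FOXC2. The ranges coincided almost entirely. The means were 299 ± 16.5 and 302 ± 17.4 FPKM, with a 95% interval of the log2 difference from -0.12 to 0.09 (limma adjusted p = 0.812). Ctnna1 (ENSMUSG00000037815.6, chromosome 18, 35118888 to 35254773, plus strand) had 130, 128, 124, 124 and 115 FPKM in wild-type libraries and 125, 120, 117, 120 and 120 FPKM in ΔFOXC2 cells. The lowest of the 10 values was a wild-type library, and so were the 2 highest. The means were 124 ± 5.77 and 120 ± 2.73 FPKM, with a log2 difference of 0.05 (95% interval -0.03 to 0.13, limma adjusted p = 0.329).

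By the limma intervals, a wild-type level of Vim below 0.919 or above 1.06 times the ΔFOXC2 level lies outside the interval. For Ctnna1 the corresponding bounds are 0.978 and 1.09. Of the 5 genes, 1 was called (background 8.62%) and 2 had groups that did not overlap (background 30.0%).

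Since alpha-catenin binds the cadherin complex through beta-catenin, Cdh2 was also set against Ctnna1 within each library. The ratio of Cdh2 to Ctnna1 FPKM was 0.260 ± 0.0111 in the wild type, from 0.247 to 0.274, and 0.223 ± 0.00775 in ΔFOXC2 cells, from 0.214 to 0.233. All wild-type ratios lay above all ΔFOXC2 ratios. On the log2 scale the difference was 0.22 (two-sided exact permutation test, p = 0.00794, the smallest that 5 against 5 libraries can give). The Cdh2 transcript was thus higher in the wild type relative to Ctnna1. That value rests on the Cdh2 level used above and is not separate evidence for it.

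**Figure D2:**
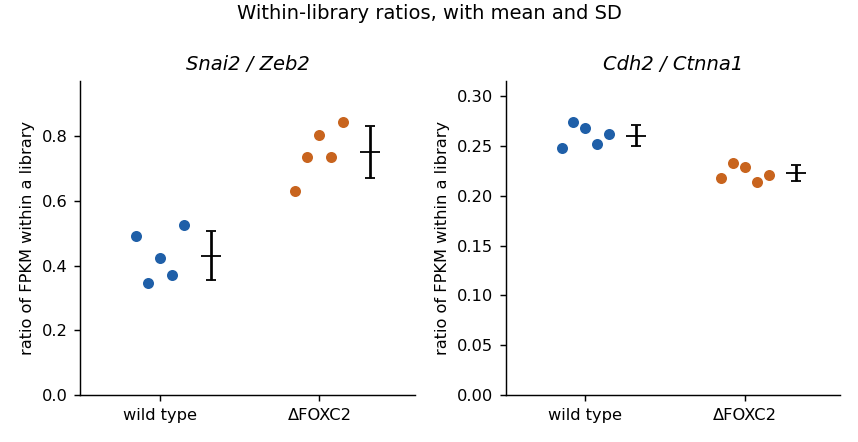
Ratio of FPKM within a library for Snai2 over Zeb2 (left) and Cdh2 over Ctnna1 (right), linear axes from 0; points are the 5 libraries of each group and bars the mean with SD. Snai2 over Zeb2 runs from 0.346 to 0.523 among wild-type libraries and from 0.628 to 0.842 among ΔFOXC2 libraries, and Cdh2 over Ctnna1 from 0.247 to 0.274 and from 0.214 to 0.233.

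The order of the levels was the same in both groups, namely Vim, Ctnna1, Cdh2, Zeb2 and Snai2 from high to low. No neighbours in that order overlapped within a group, and the higher gene exceeded the lower in 5 of 5 libraries at each step. The narrowest step was Zeb2 over Snai2 in ΔFOXC2 cells, at 1.34-fold by the means, where it was 2.34-fold in the wild type. Vim ranked 76 of 10570 by mean level, above 99.3% of the tested genes. Ctnna1 stood above 97.2% of the tested genes, Cdh2 above 83.2%, Zeb2 above 72.7% and Snai2 above 57.7%. The coefficient of variation within a group was 11.6% and 13.3% for Snai2, 7.42% and 8.56% for Zeb2, and 2.27% to 5.93% for the other 3 genes.

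**Figure D3:**
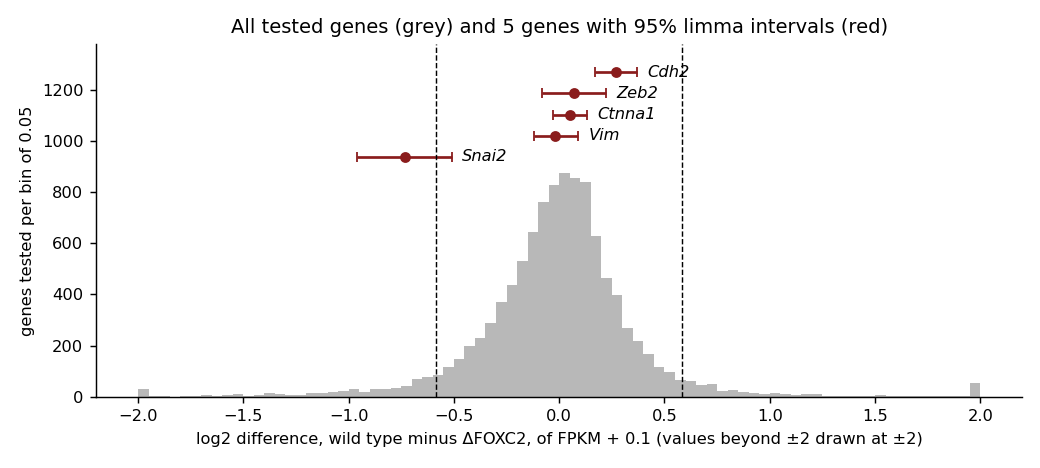
Histogram of the log2 differences (wild type minus ΔFOXC2) of the 10570 tested genes in grey, with the 5 genes as red points and their 95% limma intervals; dashed lines mark 1.5-fold. Snai2 lies beyond the lower line at -0.73 with an interval to -0.51, Cdh2 at 0.27 lies within both lines, and Zeb2, Vim and Ctnna1 lie close to 0.

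Of the 9025 genes averaging 2 FPKM or more, those with an established symbol (no Gm, Rik or similar names) were compared with each member. The genes whose levels ran most like each member over the 10 libraries were found by Pearson's r of the log2 values. These values are descriptions with no p, and the libraries share the 2 groups and the FPKM scaling. For Snai2 they were the kinesin gene Kif3b (r = 0.971), the mannose pyrophosphorylase gene Gmppa (0.969) and the cysteine desulfurase gene Nfs1 (0.969). Each of these had a lower mean in the wild type, such as 12.8 ± 0.523 against 17.8 ± 1.16 FPKM for Kif3b. For Cdh2 they were the translation factor gene Eif5a2 (0.985), Numa1 of the mitotic spindle (0.980) and Ndrg1 (0.980), all with a higher mean in the wild type. For Zeb2 they were the centrosomal gene Cep85 (0.965), the Mediator kinase gene Cdk19 (0.926) and Arhgap11a (0.903). For Vim they were the small GTPase gene Rras (0.919), the anthrax toxin receptor gene Antxr2 (0.912) and Plscr3 (0.870). For Ctnna1 they were Snn (0.964), the RNA-binding protein gene Hnrnpdl (0.931) and Smarce1 of chromatin remodelling (0.929).

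Within the groups, the members varied together to different degrees. After each value was set against its group mean on the log2 scale, Zeb2 and Cdh2 had r = 0.80 over the 10 libraries and Vim and Ctnna1 r = 0.738. Cdh2 had r = 0.603 with Vim and 0.600 with Ctnna1. Snai2 had r = -0.557 with Ctnna1 and between -0.142 and 0.021 with the other 3. These are descriptions with no p, over libraries that share one scaling.

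Around the repressors, the EMT transcription factors listed for this tissue gave 1 call in each direction. Of 16 listed genes 8 were tested, and there was a single call on either side and a median of 0.05. Besides Snai2 the called gene was Tcf4, an E-protein on chromosome 18, with 2.39 ± 0.352 against 1.32 ± 0.363 FPKM (log2 0.83, limma adjusted p = 0.00211). With a pseudocount of 1 it was at 0.55, under the fold threshold. The E-protein genes Tcf3 (27.0 against 23.9 FPKM) and Tcf12 (21.6 against 23.2 FPKM) and the forkhead gene Foxc1 (6.35 against 6.20 FPKM) were not called. Sox4 had 26.7 against 21.6 FPKM (log2 0.31) and Sox9, a neural crest factor, 2.64 against 3.84 FPKM (log2 -0.53), both under 1.5-fold. Without wild-type replicate 5, Sox9 was called at -0.62. Snai1, Snai3, Zeb1, Twist1, Twist2, Prrx1, Klf8 and Gsc were not analysed here.

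The corepressors and chromatin partners through which SNAI and ZEB proteins silence genes lay mostly on the higher side in the wild type, at small folds. Of 18 tested, 1 was called higher and 0 lower. Regardless of fold, 11 of the 18 passed the limma adjusted p threshold on the higher side and 0 on the lower (11 and 0 also at an unadjusted p under 0.05). Over all tested genes the shares were 20.8% higher and 20.7% lower at the adjusted threshold, and 25.2% and 24.2% at an unadjusted p under 0.05; these are the background of every such count given for a list. Their median was 0.18. The called gene was Limd1, a LIM-domain partner of SNAIL proteins, with 13.8, 13.1, 4.55, 12.9 and 5.16 FPKM in wild-type libraries and 3.06 to 3.95 FPKM in ΔFOXC2 cells. Wild-type replicates 3 and 5 stood near the ΔFOXC2 level, and the log2 difference of 1.29 (limma adjusted p = 0.00568) was 1.53 and 1.48 without either of them. The corepressor Ctbp2 had 16.1 to 16.7 against 12.4 to 13.8 FPKM (log2 0.33), Ctbp1 29.2 to 33.6 against 25.4 to 29.9 FPKM (log2 0.25) and the methyltransferase Ezh2 36.2 to 39.0 against 28.5 to 33.2 FPKM (log2 0.28), all under 1.5-fold. The most abundant members, Chd4 (log2 0.04) and Hdac1 (log2 0.01), differed by less than the spread.

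Genes for the turnover of SNAI and ZEB proteins gave no limma call among 14 tested, with a median of 0.01. Regardless of fold, 1 passed the adjusted p threshold on the higher side and 4 on the lower, and 2 and 5 had an unadjusted p under 0.05 (background 20.8% and 20.7%, and 25.2% and 24.2%). The most abundant were Fbxo11, a ubiquitin ligase subunit that targets SNAIL proteins, with 35.8 ± 2.16 against 27.4 ± 2.68 FPKM (log2 0.39), and the kinase gene Prkaa1, with 36.2 ± 1.41 against 43.5 ± 2.05 FPKM (log2 -0.26). Of 19 genes of the TGF-beta, Notch and WNT inputs, 4 were called, 2 in each direction (background 3.65% higher and 4.97% lower). Their median was 0.05. The ligand genes went opposite ways, Tgfb2 at 6.07 to 6.82 against 2.49 to 4.00 FPKM and Tgfb1 at 1.63 to 1.92 against 4.56 to 5.17 FPKM. The WNT repressor Tcf7l1 was higher (log2 0.74) and the WNT feedback gene Axin2 lower (log2 -0.66, or -0.44 with a pseudocount of 1).

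**Figure D4:**
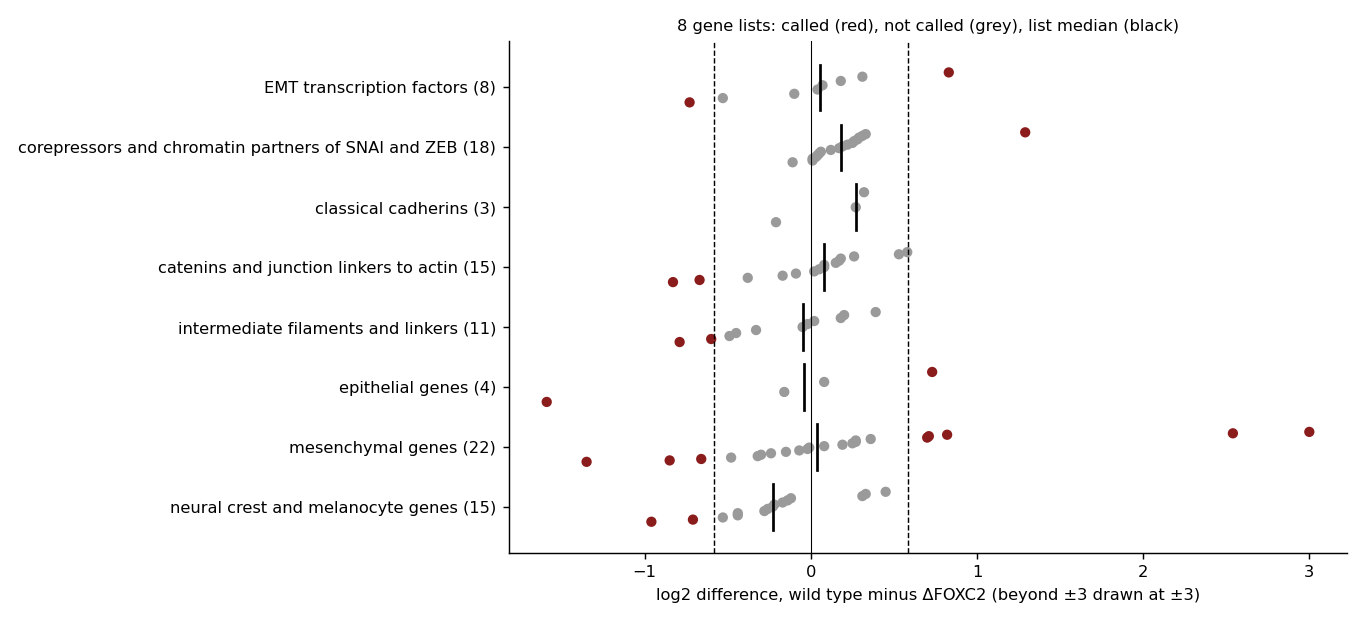
Log2 differences (wild type minus ΔFOXC2, horizontal axis) of the tested members of 8 gene lists, with the number tested in brackets; red points were called, grey points were not, black bars are list medians, dashed lines mark 1.5-fold, and Fscn1 (7.39) is drawn at 3. The partner genes of SNAI and ZEB lie mostly above 0 with a median of 0.18, the neural crest and melanocyte genes mostly below 0 with a median of -0.23, and the mesenchymal genes on both sides with a median of 0.04.

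Among the cadherins, 3 of 11 listed genes were tested and limma called 0 of them. Regardless of fold, Cdh2 passed the adjusted p threshold on the higher side and Cdh19 on the lower, and at an unadjusted p under 0.05 there were 2 and 1. Cdh19, a cadherin of the neural crest lineage on chromosome 1, had 45.8, 46.9, 48.2, 52.4 and 50.9 FPKM in wild-type libraries and 55.2, 60.2, 56.3, 54.1 and 56.2 FPKM in ΔFOXC2 cells. It was lower in every wild-type library, with a log2 difference of -0.21, and was the more abundant of the pair in both groups. When chromosome medians were centred the difference was 0.0638. Cdh13, a cadherin without a cytoplasmic tail, had 0.513 to 0.640 against 0.352 to 0.544 FPKM and was not called. It averaged 0.461 FPKM in ΔFOXC2 cells, so it was kept through the wild type. Cdh1 was not analysed here, so no ratio of the cadherins of epithelial and mesenchymal cells is given.

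Among the catenins and the linkers of the junction to actin, the linkers Vcl and Lima1 were lower in the wild type. Of 15 tested genes, these 2 were called lower and 0 were called higher (background 4.97% and 3.65%), with a median of 0.08. Regardless of fold, 3 passed the adjusted p threshold on the higher side and 4 on the lower. At an unadjusted p under 0.05, 4 were higher and 5 lower. Vcl (vinculin), which alpha-catenin recruits under tension, had 10.8, 11.6, 11.2, 11.3 and 12.1 FPKM in wild-type libraries and 19.6, 20.4, 19.6, 22.7 and 19.2 FPKM in ΔFOXC2 cells. The groups were far apart, with a log2 difference of -0.83 (SE 0.0526, limma adjusted p = 5.05e-07). Lima1 (EPLIN), which links alpha-catenin to actin, had 45.0 to 53.9 against 68.8 to 85.3 FPKM (log2 -0.67, limma adjusted p = 8.99e-06). Zyxin (Zyx), a LIM protein of adhesions, had 23.4 to 25.6 against 29.3 to 33.4 FPKM, a log2 difference of -0.38 that is under 1.5-fold. On the higher side, Pard3 had 3.87 ± 0.235 against 2.66 ± 0.297 FPKM (log2 0.53) and Pkp4 21.8 ± 1.42 against 19.3 ± 0.271 FPKM (log2 0.18). Both were under 1.5-fold. In the same libraries the p120 catenin Ctnnd1 had 28.0 to 32.4 against 29.3 to 31.5 FPKM.

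Beta-catenin (Ctnnb1), which joins cadherins to alpha-catenin, was uneven within the ΔFOXC2 group. It had 92.8, 96.6, 99.5, 94.6 and 96.2 FPKM in wild-type libraries and 72.3, 74.0, 95.5, 95.4 and 98.6 FPKM in ΔFOXC2 cells. ΔFOXC2 replicates 1 and 2 lay below all other libraries, and replicates 3 to 5 lay within or near the wild-type range. Its log2 difference of 0.15 was not called (limma adjusted p = 0.189).

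Of 14 genes for the cleavage and turnover of cadherins, 1 was called higher and 0 lower, with a median of -0.09, and 2 and 5 had an unadjusted p under 0.05. Adam9, a membrane protease on chromosome 8, had 134 to 145 against 79.6 to 89.3 FPKM (log2 0.73, limma adjusted p = 1.8e-07). Its difference was 0.43 when chromosome medians were centred, under the threshold. Adam10, the protease that releases the cadherin-2 ectodomain, had 35.9, 40.1, 41.0, 41.6 and 37.3 FPKM in wild-type libraries and 58.5, 58.3, 31.2, 58.5 and 60.7 FPKM in ΔFOXC2 cells. ΔFOXC2 replicate 3 was below every other library, and the log2 difference of -0.41 was not called (limma adjusted p = 0.0607). Without that library it was -0.59 and called (limma adjusted p = 7.81e-06). Arf6, which drives cadherin endocytosis, had 47.1 ± 1.46 against 49.5 ± 2.98 FPKM and was not called.

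**Figure D5:**
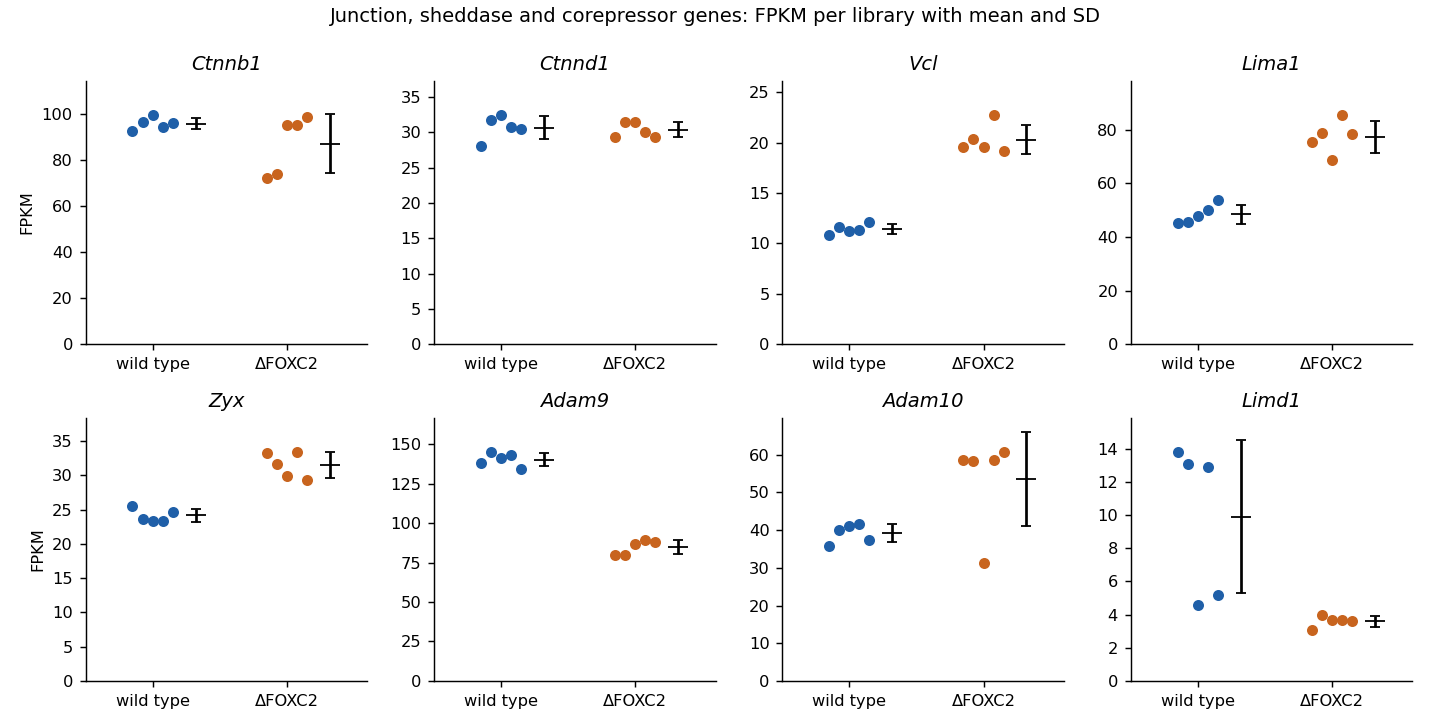
FPKM (vertical axes, linear from 0) of Ctnnb1, Ctnnd1, Vcl, Lima1, Zyx, Adam9, Adam10 and Limd1 in the 5 wild-type (blue) and 5 ΔFOXC2 (orange) libraries; points are libraries and bars the mean with SD. Vcl, Lima1, Zyx and Adam9 separate the groups, while single libraries stand apart in Ctnnb1 (72.3 and 74.0), Adam10 (31.2) and Limd1 (4.55 and 5.16).

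Beside Vim, the intermediate filament genes and their linkers gave 0 calls higher and 2 lower among 11 tested (background 3.65% and 4.97%). Their median was -0.05. Regardless of fold, 2 lay on the higher side and 5 on the lower past the adjusted p threshold, and as many at an unadjusted p under 0.05. Dst (dystonin), a spectraplakin that connects filaments to other cytoskeletal elements, had 13.4 to 20.1 against 28.0 to 31.9 FPKM (log2 -0.79). Plectin (Plec), which cross-links vimentin filaments, had 3.81 to 4.61 against 5.20 to 6.16 FPKM (log2 -0.49), and nestin (Nes), a filament protein that assembles with vimentin, 34.2 to 44.1 against 32.1 to 36.3 FPKM (log2 0.20), both under 1.5-fold. Desmin (Des) was called at 1.62 ± 0.22 against 2.52 ± 0.296 FPKM (log2 -0.60). Its fold dropped under the threshold with a pseudocount of 1 (-0.42) and when 1 of 5 libraries was left out, namely replicate 3, 4 or 5 of the wild type (-0.58, -0.58 and -0.57) or replicate 2 or 3 of the ΔFOXC2 group (-0.56 and -0.58). Dst and Des lie on chromosome 1, and with chromosome medians centred they had -0.51 and -0.33, under the threshold. Of 14 kinases and phosphatases that act on vimentin limma called 0. Past the adjusted p threshold regardless of fold were 5 on the higher side and 1 on the lower, and at an unadjusted p under 0.05 there were 7 and 1 (background 20.8% and 20.7%, and 25.2% and 24.2%). The most abundant were Ppp1ca (log2 0.11) and Akt1 (log2 0.13).

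Mesenchymal genes were called in both directions. Of 22 tested, 8 were called, 5 of them higher and 3 lower in wild-type cells (background 3.65% and 4.97%). Their median was 0.04. The 5 higher genes were Fscn1, Fstl1, Col5a1, Thbs1 and Dab2. Fstl1, a secreted glycoprotein, had 2.20 to 2.69 against 0.259 to 0.415 FPKM (log2 2.54, or 1.37 with a pseudocount of 1). The collagen gene Col5a1 (log2 0.82), the thrombospondin gene Thbs1 (0.71) and the endocytic adaptor gene Dab2 (0.70) were at 0.52, 0.46 and 0.56 with a pseudocount of 1, under the fold threshold. Fscn1, an actin-bundling protein, had 12.3 to 27.6 FPKM in wild-type libraries. Of the ΔFOXC2 libraries, 3 listed it at 0 and the others at 0.0524 and 0.0455 FPKM. In ΔFOXC2 cells Fscn1 and Fstl1 averaged 0.0196 and 0.347 FPKM, so both were kept through the wild type. The direction of their differences was thus partly set by the rule of 0.5 FPKM for the higher group mean. The 3 lower genes were Sparc (143 to 163 against 256 to 291 FPKM), Ctgf (5.45 to 6.43 against 14.1 to 16.7 FPKM) and Fn1 (5.70 to 7.59 against 8.13 to 13.4 FPKM), which encode matrix-associated proteins. Fn1 was under the fold threshold without ΔFOXC2 replicate 1 (-0.56) and with chromosome medians centred (-0.38).

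Epithelial genes were few in the tested set. Of 29 listed 5 were in the table and 4 were tested, with a single call on either side. Tjp3, a tight junction scaffold whose E-boxes are printed above, had 1.28 to 1.53 against 0.539 to 1.13 FPKM (log2 0.73, or 0.40 with a pseudocount of 1). Pkp2, a plaque protein of desmosomes, had 0.178 to 0.409 against 0.720 to 1.23 FPKM (log2 -1.59, limma adjusted p = 9.86e-05, or log2 -0.65 with a pseudocount of 1). Pkp2 averaged 0.271 FPKM in the wild type and was kept through its ΔFOXC2 mean of 0.998 FPKM. The direction of its difference was thus partly set by the rule of 0.5 FPKM. The scaffold gene Tjp1 had 11.3 to 15.2 against 11.8 to 14.1 FPKM. Of the listed genes with a promoter window, an E-box was present in 2 of 3 epithelial genes, 5 of 14 catenin and linker genes and 3 of 8 intermediate filament genes, where 19.1% of all tested genes with a window held one. It was present in 2 of 16 mesenchymal genes, 2 of 16 corepressors, 1 of 14 signalling inputs and 1 of 9 neural crest and melanocyte genes. It was present in 0 of 5 EMT transcription factors, 0 of 9 turnover genes, 0 of 11 cadherin cleavage genes and 0 of 9 kinases and phosphatases of vimentin. Among called genes with a window it was present in 24.6% of those higher and 22.6% of those lower in the wild type.

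The genes of the neural crest and melanocyte lineage, in which Snai2 and Zeb2 are also expressed, were mostly below 0. Of 15 tested, 0 were called higher and 2 lower, with a median of -0.23. Regardless of fold, 2 lay on the higher side and 11 on the lower past the limma adjusted p threshold, and as many at an unadjusted p under 0.05 (background 20.8% and 20.7%, and 25.2% and 24.2%). The list holds 5 pigment genes (Tyr, Tyrp1, Dct, Pmel and Mlana), all among the 11. Of the other 10, 2 lay on the higher side and 6 on the lower. With chromosome medians centred, 2 of the 15 lay on the higher side and 8 on the lower past the adjusted p threshold. All 7 melanocyte markers described next are in this list, so the counts are not separate. Tyr, the first enzyme of melanin synthesis, had 45.2 to 62.8 against 73.3 to 93.4 FPKM (log2 -0.71) and Id3, an inhibitor of E-proteins, 0.766 to 1.22 against 1.85 to 2.18 FPKM (log2 -0.96, or -0.59 with a pseudocount of 1). Sox10, which specifies the lineage, had 177 to 199 against 219 to 234 FPKM (log2 -0.28), under 1.5-fold.

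Markers were examined for the labelled cell type and for others. All 7 melanocyte markers were tested, with 0 called higher and 1, Tyr, called lower. At an unadjusted p under 0.05 all 7 were lower. Regardless of fold, 7 passed the limma adjusted p threshold on the lower side, and 5 did with chromosome medians centred. Tyrp1 (881 ± 85.9 against 1050 ± 73.0 FPKM) and Mlana (825 ± 46.1 against 928 ± 46.3 FPKM) were the most abundant. Of 8 fibroblast markers Col1a2 was in the table, at 0.823 to 0.899 against 0.581 to 0.931 FPKM. None of the 9 markers of keratinocytes and other epithelium and none of the 7 of endothelium was in the table used here. Of 8 leukocyte and macrophage markers 2 were present, Cd68 (log2 -0.94, or -0.51 with a pseudocount of 1) and Lyz2 (log2 -2.36, or -1.25 with a pseudocount of 1), both called lower. Lyz2 averaged 0.386 FPKM in the wild type and 2.33 FPKM in ΔFOXC2 cells, so it was in the table through the ΔFOXC2 group.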

How the data were processed

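Poly(A) RNA of 10 cultures was made into strand-specific libraries and read for 150 cycles from both ends, per the labels' protocols. The deposited values are FPKM computed by the authors; the tools named are StringTie, HISAT2, cutadapt and FastQC, on GRCm38, per the submitters' processing notes, and versions are not given in the sources used here. The table lists protein-coding genes whose higher group mean is at least 0.5 FPKM. No common step was found among low values (at most 4 of 342 low genes had one ratio in any pair), so read counts could not be recovered and the depth and its counting error are unknown.

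Values were analysed as log2(FPKM + 0.1) with limma 3.58.1 in R 4.3.3 (mean-variance trend, two-sided, no covariates) over genes averaging 0.5 FPKM or more, which left out 165. The fit was tested on simulated data. Samples were grouped by their titles. Single ratios were compared by exact permutation over libraries. Alternatives were pseudocounts of 1 and 0.01, no filter and a filter at 5 FPKM, other scalings and variance models, the replicate number as a block and leaving out each library. Members and gene lists were chosen with earlier results of these data known. Named are the members, up to 3 called genes per direction of each list, or the 2 most abundant where fewer than 2 were called, the 3 genes most like each member, and Gapdh and Actb (log2 0.08 and -0.02, not called); other genes named were chosen after their values were seen. RefSeq promoter windows are of GRCm38.p6.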

Additional observations from a re-analysis of the deposited data

Results flagged for a closer look

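Among 142 groups of 5 values (69 genes and 2 ratios in both groups), 10 had a library set apart from the other 4 by more than Dixon's 95% limit, where chance gives about 1 in 20; none belonged to Snai2, Zeb2, Cdh2, Vim or Ctnna1. Adam10 was low in ΔFOXC2 replicate 3 (31.2 FPKM). In wild-type replicate 5, Tcf7l1 was low (12.0 FPKM) and Axin2 (1.93), Arf6 (49.6) and Tcf12 (24.1) were high. In wild-type replicate 1, Ppp1ca (186 FPKM) and Actb (502) were high, and in wild-type replicate 2 Plec was high (4.61 FPKM) and Foxc1 low (5.77). Ctbp1 was high in ΔFOXC2 replicate 4 (29.9 FPKM).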

How the results depend on the processing

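Of 100 alternative values of the 5 members, 96 kept their direction and their side of the threshold. The log2 difference of Snai2 ran from -0.79 to -0.67 without each library in turn and from -0.76 to -0.67 otherwise, called each time. Cdh2 ran from 0.16 (chromosome medians centred) to 0.29, never past 1.5-fold, and Zeb2 from 0.0282 to 0.15. Some signs changed. Vim ran from -0.0483 to 0.00908 with a library left out. With chromosome medians centred, Vim was 0.0634, Ctnna1 -0.066, Foxc1 -0.0031 and Cdh19 0.0638, where it was -0.21 (limma adjusted p = 0.00329) without centring; the cause was not tested. With a library left out, Hdac1 ran from -0.00862 to 0.0268, Actb from -0.0765 to 0.00535 and Ctnnd1 from -0.00445 to 0.0477. The counts of genes called, 386 on the higher side and 525 on the lower, were 230 and 338 with a pseudocount of 1 and 123 and 217 with a filter at 5 FPKM, which tests fewer genes; without a library they ran from 370 to 409 and from 505 to 554. For the other named genes, 18 of 1197 alternative values lost a call and 2 gained one, and for the lists 26 of 494 counts moved by over 1.5 times.

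With the replicate number as a block, Snai2 was -0.73 (limma adjusted p = 0.000563), and both ratios kept their values of -0.80 and 0.22 with the paired exact permutation p = 0.0625, the smallest 5 pairs can give. Same-numbered libraries were not taken as pairs, since the correlations of their deviations from the group means were 0.137, -0.121, 0.0521, 0.0858 and 0.114, and 2 of 5 wild-type libraries correlated best with their own number. The read depth is unknown, so nothing here bounds the counting error of low genes such as Pkp2 or Lyz2.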
